A study of Mus musculus with 16 samples.

Results

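The neighbourhoods of Mrc1 and Prdm1 were examined in mouse dendritic cells and in 3T3 cells, as lists of H3K4me1 summits, the single positions at which the ChIP-seq signal of that histone mark peaked. Members are all summits of either list, in the mm9 genome build, on chromosome 2 from 14000000 to 14300000 (Mrc1) and on chromosome 10 from 44050000 to 44450000 (a window named for Prdm1 and a stretch upstream of it, in which the start of the gene was not located here). The dendritic cell list contributed 77 of its 79796 summits, and the 3T3 list 12 of its 81860. Both windows were chosen by the measured summit numbers, as stretches with many dendritic cell and few 3T3 summits, so the counts, shares and distances between the lists describe that choice and were not tested.

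The dendritic cells were grown from bone marrow progenitors that had been infected with a retrovirus carrying a hairpin against JmjD2d, a histone demethylase, selected in histidinol and differentiated in GM-CSF. They were not stimulated. The 3T3 cells, an established mouse fibroblast line, were kept under standard conditions without hairpin or stimulus. Differences due to cell type and to the hairpin cannot be told apart here. The series has 16 samples, with H3K27ac, H4ac, input DNA and stimulated cells among the 14 not analysed here. With 1 library per cell type there is no replicate error for any value, and intervals cover counting error only. The cell type field of the 3T3 sample names dendritic cells, whereas its title and description, like the header of its file, say 3T3. The lists carry no gene names, so the cell types were not checked against marker genes.

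Mrc1 encodes the mannose receptor CD206, a lectin of macrophages and dendritic cells that binds mannose-bearing glycans and carries them into the cell. Prdm1 encodes Blimp-1, a zinc finger repressor of transcription best known for driving B cells to become plasma cells, which also acts in T cells and in myeloid cells. H3K4me1, histone H3 with a single methyl group on lysine 4, lies at enhancers, whether active or poised, and on the flanks of promoters. Genes that set a cell's identity often have several marked enhancers spread over a long stretch. In the RefSeq table (GRCm38.p6), Mrc1 lies between Tmem236 and Slc39a12, a zinc transporter gene, and holds the microRNA gene Mir511. There Prdm1 lies between the lncRNA Gm35028 and the pseudogene Gm5950, and its nearest protein-coding neighbours are Atg5, an autophagy gene, and Prep, a peptidase gene. That build is not the one of the lists, so the table served for names and order only, and no summit is placed in a promoter, exon or intron.

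The promoters of both genes are shown because the windows are named for these genes and the mark is known to flank promoters. Each runs from 250 bases before to 50 bases after the RefSeq start (GRCm38.p6). Mrc1 is on the plus strand of chromosome 2 and Prdm1 on the minus strand of chromosome 10. Capitals mark matches on either strand to GAGGAA, the core of the motif of PU.1, a myeloid transcription factor, and to TGANTCA. The latter is a loose form of the AP-1 motif that allows any base in the middle. No marked matches overlap.

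Mrc1: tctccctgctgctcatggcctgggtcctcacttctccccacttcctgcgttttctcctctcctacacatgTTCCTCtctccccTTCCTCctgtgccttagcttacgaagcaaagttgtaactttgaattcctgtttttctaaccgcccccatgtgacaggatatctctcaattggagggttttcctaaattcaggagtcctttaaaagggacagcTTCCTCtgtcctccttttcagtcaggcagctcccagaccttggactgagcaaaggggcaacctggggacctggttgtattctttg

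Prdm1: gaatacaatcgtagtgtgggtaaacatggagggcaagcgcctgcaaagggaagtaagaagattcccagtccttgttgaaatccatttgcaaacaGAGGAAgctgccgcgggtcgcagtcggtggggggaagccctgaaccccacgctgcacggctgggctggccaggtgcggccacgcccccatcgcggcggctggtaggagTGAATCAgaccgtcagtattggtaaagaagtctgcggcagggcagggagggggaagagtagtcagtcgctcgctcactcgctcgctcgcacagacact

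The Mrc1 promoter held GAGGAA 3 times and the Prdm1 promoter once. At least 1 match was found in 28.3% of the 32851 promoters in the table, and the share with 3 or more was not counted. These motifs were chosen after the promoters had been read. TGANTCA was found once, in the Prdm1 promoter, and is present in 7.81% of promoters. The match there, TGAATCA, has A in the middle, where the AP-1 consensus has C or G. Matches to TTGCNNAA, a C/EBP motif, and to TATAAA were not found in these windows, and 10.8% and 13.6% of promoters hold them. The sequences differ in base composition. The Mrc1 promoter had 50.3% G and C with 3 CG pairs, and the Prdm1 promoter 59.7% with 20, beside medians of 52.7% and 7 over all promoters. A match of letters is a description and shows no binding.

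The Mrc1 neighbourhood was marked densely in dendritic cells and sparsely in 3T3 cells. In its 300 kb, dendritic cells had 25 summits (exact Poisson 95% interval 16.2 to 36.9) and 3T3 cells 3 (0.619 to 8.77). Windows of the same length with any summit held a median of 9 dendritic cell and 10 3T3 summits. As many dendritic cell summits were found in 1125 of 6670 such windows (16.9%), whereas an excess of dendritic cell over 3T3 summits as large as the 22 seen here was found in 74 (1.11%). The number of dendritic cell summits alone was thus reached in many windows, and the excess over 3T3 in few. The intervals treat summits as independent and are not corrected for how the window was picked.

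A 3T3 summit within 1000 bp was lacking for 24 of the 25 dendritic cell summits around Mrc1 (96.0%, exact Clopper-Pearson 95% interval 79.6 to 99.9), against 69.4% of the whole list. All 24 lay in a single stretch of 230 kb between neighbouring 3T3 summits, at 14034192 and 14263995. Of the 81838 stretches between neighbouring 3T3 summits, 48 (0.0587%) held at least 24 dendritic cell summits, though the median stretch was only 9167 bp long. Around Mrc1, 21 of 25 dendritic cell summits were more than 20 kb from any 3T3 summit, against 15.6% of the list. The 3T3 summits stood at the ends of the neighbourhood. The first, at 14029977, scored 43, and a dendritic cell summit that scored 46 was 110 bp away. The next, at 14034192, scored 22 and was 4325 bp away from any dendritic cell summit. The last, at 14263995, scored 27, and the nearest dendritic cell summit, 2685 bp away, scored 24.

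**Figure D1:**
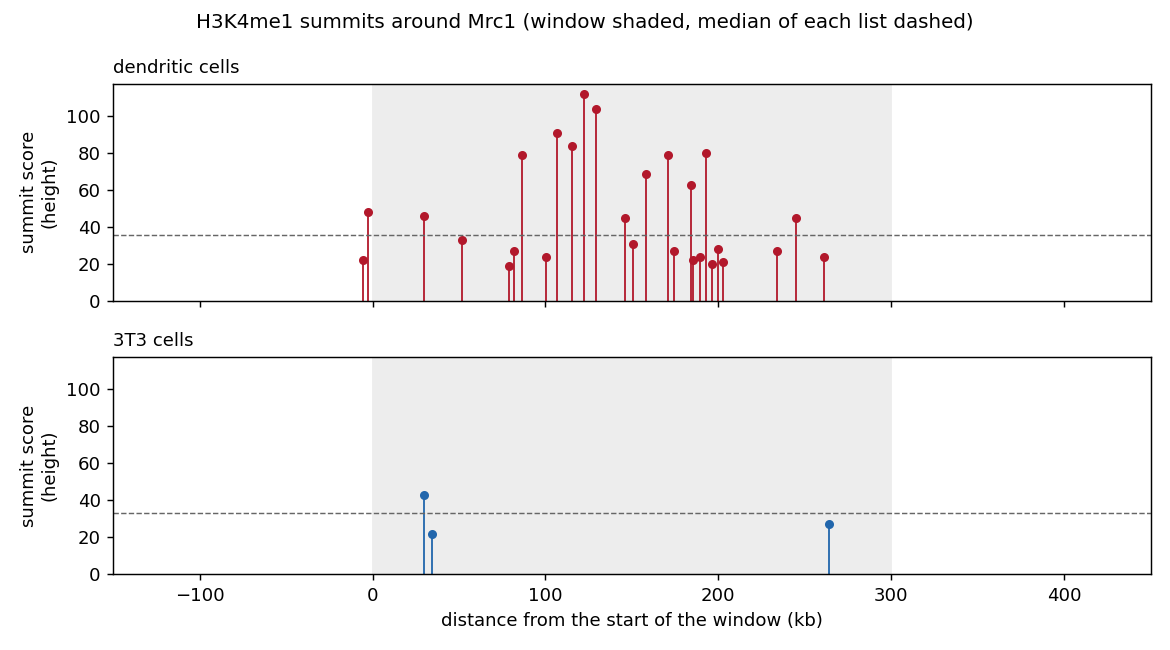
H3K4me1 summits around Mrc1 in dendritic cells (upper panel) and 3T3 cells (lower panel), by distance in kb from the start of the window (shaded) and by score, with the median of each list dashed (36 and 33). The lists have no recorded common scale of scores. The dendritic cell summits fill the middle of the window, where the 3T3 list has a stretch of 230 kb without a summit.

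The score, which the file headers do not name, is taken as the height of the signal at the summit, on each list's own scale. Around Mrc1 the dendritic cell scores ran from 19 to 112, with a median of 33 (binomial 95% interval 27 to 69) beside 36 for the whole list. Scores were spread unevenly, since 7 of 25 summits (28.0%, 12.1 to 49.4) were at or above 79, the 90th percentile of the list, where 10.2% of all dendritic cell summits lie. Just at that limit were 2 summits with a score of 79, and the next below it scored 69. Another 7 summits (28.0%) were below the lower quartile of the list, as were 24.7% of all dendritic cell summits. The upper quartile of the neighbourhood was 79, against 55 for the list.

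The 4 highest summits around Mrc1 followed one another, with no other summit between them. They lay at 14106852 (score 91), 14115162 (84), 14122136 (112) and 14129114 (104). The summit at 14122136 stood above 97.4% of the dendritic cell list, and that at 14129114 above 96.3%. The fifth, at 14192987, had a score of 80 and stood above 90.2%. The 3T3 summit nearest to any of these 5 was 71.0 kb away, from the summit at 14192987. In bins of 50 kb, the bin from 14100001 to 14150000 held 6 dendritic cell summits with a median score of 87.5, and the next one held 10 with a median of 29.5. The largest number of summits and the largest heights thus fell in neighbouring bins, not in the same one.

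The marked stretch around Mrc1 broke off before the upper end of the window, but not at the lower end. Towards higher positions the last dendritic cell summit in the window, at 14261310 with a score of 24, was followed by 199 kb without another, up to 14459977 (score 19). The 3T3 list had no summit over 192 kb of that stretch, from 14263995 to 14455973. Towards lower positions the last summit outside the window, at 13997093 (score 48), lay 32.8 kb from the first inside it, at 14029867 (score 46). That distance was close to the largest gap inside the window. Further out, no bin of 10 kb from 13720001 to 13990000 held a dendritic cell summit. The 300 kb on that side held 5 dendritic cell and no 3T3 summits, and the 300 kb on the other side 8 of each. The largest gap inside the window was 31.0 kb, between summits at 14202966 (score 21) and 14233925 (score 27).

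The Prdm1 neighbourhood was marked along its whole length in dendritic cells. In its 400 kb, dendritic cells had 52 summits (38.8 to 68.2) and 3T3 cells 9 (4.12 to 17.1). Windows of that length held a median of 12 and 13, and 25 of 5222 (0.479%) had as many dendritic cell summits. An excess as large as the 43 seen here was found in 0 of them (0%), the largest being 42. Those windows were laid from the first base of each chromosome, whereas this one was placed where the summits are. Of 40 bins of 10 kb, 34 held a dendritic cell summit and 9 a 3T3 summit. A 3T3 summit with no dendritic cell summit in the same bin was found once. Around Mrc1, 16 of 30 bins held a dendritic cell summit and 3 a 3T3 summit. The share of such bins over the whole lists was not counted.

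**Figure D2:**
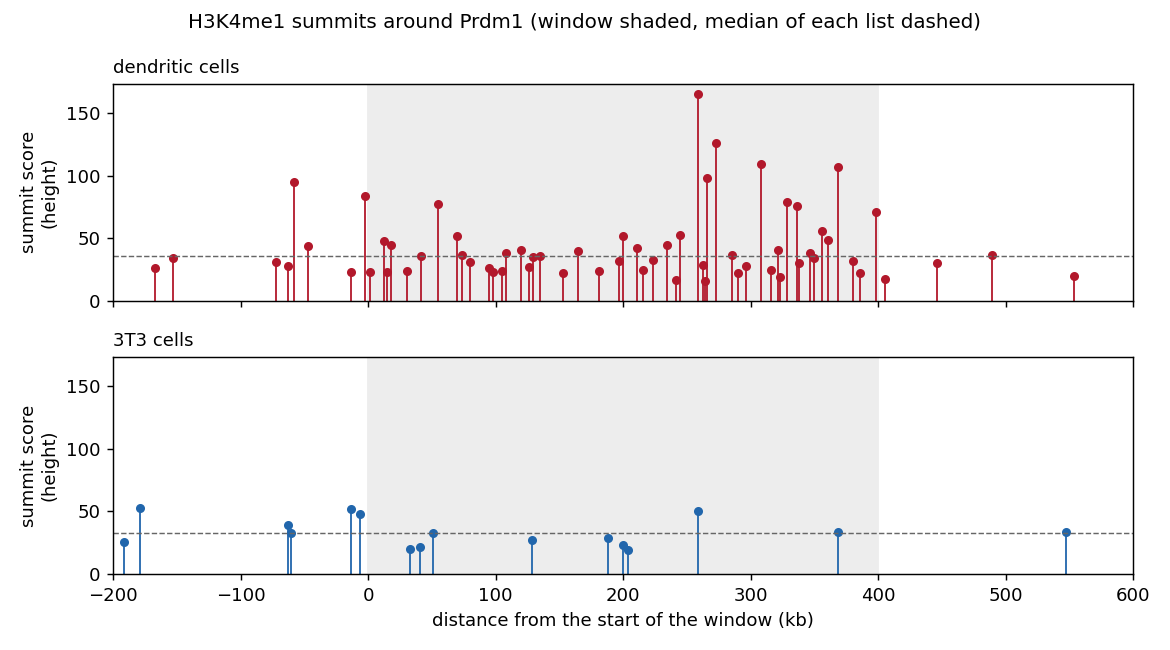
H3K4me1 summits around Prdm1 in dendritic cells (upper panel) and 3T3 cells (lower panel), by distance in kb from the start of the window (shaded) and by score, with the median of each list dashed (36 and 33). Dendritic cell summits stand along the whole window, and the 5 highest, from 98 to 165, lie towards its upper end. The lists have no recorded common scale of scores.

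Around Prdm1, as in the whole list, most dendritic cell summits had no 3T3 counterpart. No 3T3 summit lay within 1000 bp of 47 of 52 (90.4%, 79.0 to 96.8), against 69.4% of the list. None lay within 20 kb of 21 of 52, against 15.6% of the list. Between the 3T3 summits of the window, the longest stretch without one ran for 110 kb, from 44308393 to 44418373. It held 19 dendritic cell summits with a median score of 38. Of all stretches between neighbouring 3T3 summits, 97 (0.119%) held at least that many. A longer stretch, of 179 kb, ran from the summit at 44418373 past the upper edge of the window to 44597472. The difference between the Mrc1 and Prdm1 neighbourhoods in distance to 3T3 summits was not tested.

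The heights around Prdm1 resembled those of the whole list, in their median and in the share of high summits. Scores ran from 16 to 165, with a median of 36 (30 to 41), equal to that of the list. At or above 79 were 6 of 52 (11.5%, 4.35 to 23.4), close to the 10.2% of all dendritic cell summits. Of these, 1 had a score of exactly 79, and the next lower scored 77. All 6 lay within 110 kb, from 44308361 to 44418348. In the 5 bins of 50 kb from 44050001 to 44300000, each holding 5 or 6 summits, the highest scores were between 41 and 77. The bins from 44300001, 44350001 and 44400001 held 8, 9 and 6 summits, with highest scores of 165, 109 and 107.

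The highest summit around Prdm1, at 44308361 with a score of 165, stood above 99.8% of the dendritic cell list, where 153 summits were higher. Towards higher positions came 2 low summits, with scores of 29 and 16, and then those at 44316102 (score 98) and 44322979 (score 126). The other high summits were at 44358266 (score 109) and 44418348 (score 107), above 97.0% and 96.7% of the list. The summits at 44308361 and 44418348 each had a 3T3 summit within 32 bp, whereas those at 44316102, 44322979 and 44358266 were 7.71, 14.6 and 49.9 kb from any. At the high end of the window the summit at 44448396 had a score of 71, and the first outside it, at 44455368, a score of 18.

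**Figure D3:**
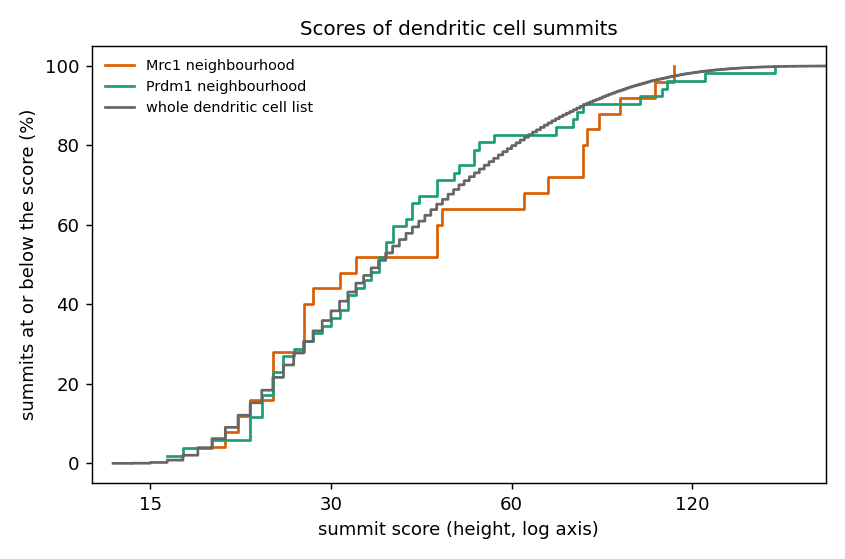
Share of dendritic cell summits at or below each score (log axis), for the neighbourhoods of Mrc1 (25 summits) and Prdm1 (52 summits) and for the whole list (79796 summits). At scores from 24 to 33 the Mrc1 line runs above that of the list, with a larger share of low summits. Between scores of 69 and 79 it runs below, since 7 of its 25 summits score 79 or more. The Prdm1 line stays close to the list.

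The 400 kb on either side of the Prdm1 window differed from it. Towards lower positions there were 22 dendritic cell (13.8 to 33.3) and 21 3T3 summits (12.999 to 32.1), and towards higher positions 14 (7.65 to 23.5) and 6 (2.20 to 13.1). The number of 3T3 summits on the lower side was thus near that of the dendritic cells, and 59.1% of the dendritic cell summits there had no 3T3 summit within 1000 bp. On the upper side 78.6% had none, against 69.4% of the whole list. There was little break at either edge of the window in dendritic cells. At the lower edge a summit with a score of 84 lay outside, at 44047083, and one with a score of 23 inside, at 44051436. Across the upper edge the distance was 6.97 kb, beside a median spacing of 6605 bp inside the window. The largest gap inside was 17.8 kb, between summits at 44184945 (score 36) and 44202777 (score 22).

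**Figure D4:**
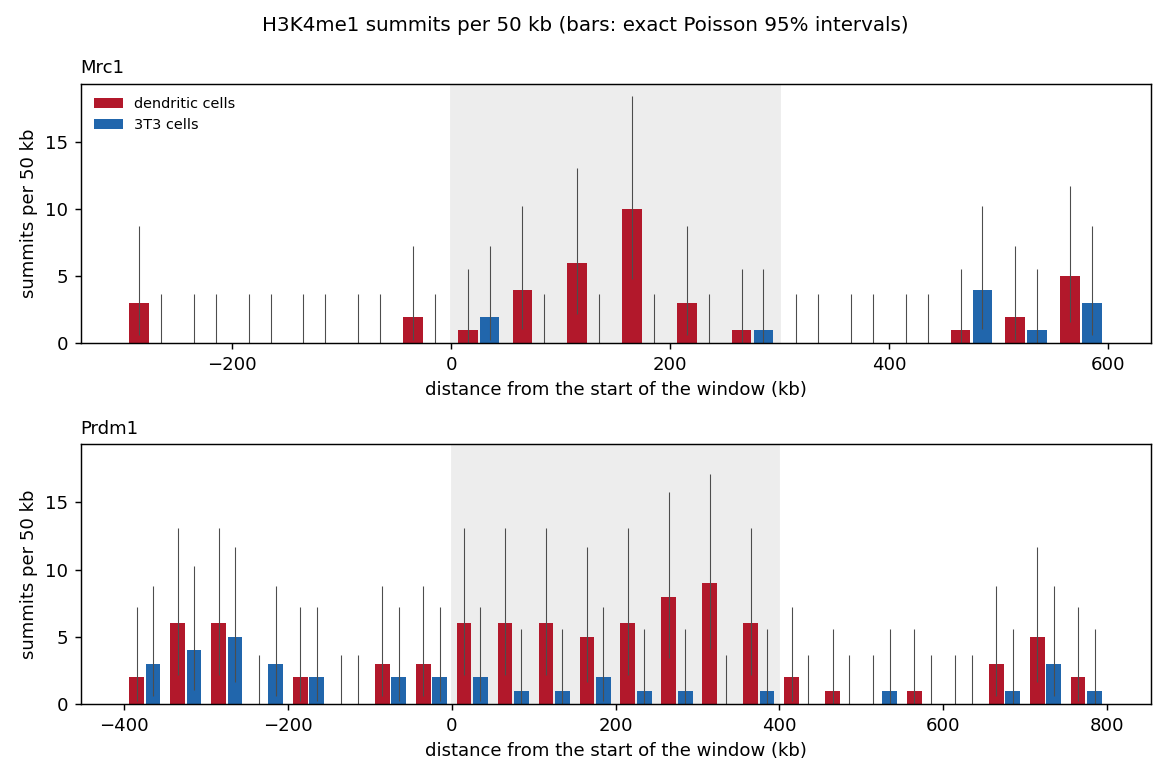
H3K4me1 summits per 50 kb in dendritic cells (left bar of each pair) and 3T3 cells (right bar), for the windows of Mrc1 and Prdm1 (shaded) and stretches of the same length on each side, with exact Poisson 95% intervals. Dendritic cell bars peak at 10 in the Mrc1 window and at 9 in the Prdm1 window, and no 3T3 bar in either window exceeds 2.

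Dendritic cell summits followed one another at similar distances in both neighbourhoods. The median spacing was 6976 bp around Mrc1 and 6605 bp around Prdm1, against 8173 bp over the whole dendritic cell list. Neighbours less than 2000 bp apart, as can arise from both flanks of one element, made up 1 of 24 spacings around Mrc1 and 4 of 51 around Prdm1. Over the whole list their share was 3.93%. The smallest spacings were 1268 and 1712 bp. The lists give no peak widths, so how many summits belong to one broad marked stretch was not tested.

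Against other stretches that dendritic cells alone had marked, the middle of the Mrc1 window was high. On a grid of 100 kb, 82 of 16889 windows with any summit (0.486%) held at least 10 dendritic cell and no 3T3 summits. The window from 14100001 to 14200000 was one of them, with 16 summits, the most of any of the 82, and a median score of 54. A median as high or higher was found in 6 of the 82, this window included, and the median over them was 35. Over the whole grid, whatever the number of 3T3 summits, 198 windows had as many dendritic cell summits or more. No 100 kb window of the Prdm1 neighbourhood was among the 82, since each held at least 1 3T3 summit. The richest, from 44300001 to 44400000, had 17 dendritic cell summits with a median score of 37, and 78 windows of the grid had as many or more.

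The sites called in both cell types were few, and around Prdm1 they stood higher in dendritic cells. The score ratios of mutually nearest summits within 1000 bp are given relative to the median of all 24378 such pairs, at which the dendritic cell score was 1.09-fold that of 3T3. The single pair around Mrc1, with scores of 46 in dendritic cells and 43 in 3T3, had a relative log2 ratio of -0.02. Its summits ranked alike, above 65.2% of the dendritic cell list and 66.7% of the 3T3 list.

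All 5 pairs around Prdm1 had a ratio above that median. The pair at 44308361 scored 165 in dendritic cells and 50 in 3T3 (log2 ratio 1.60). That at 44418348 scored 107 and 34 (1.53), and that at 44249978 scored 52 and 23 (1.05). These 3, of 6 pairs in both neighbourhoods, were at least 2-fold higher in dendritic cells, as were 11.6% of all pairs. Their positions differed by 32, 25 and 21 bp, whereas the median distance was 182 bp over all pairs and 20.2% of pairs lay within 50 bp. The remaining pairs, at 44091703 and 44179414, scored 36 and 35 in dendritic cells and 22 and 27 in 3T3, with log2 ratios of 0.59 and 0.25 and distances of 897 and 767 bp. The strongest site of the Prdm1 window was thus also listed in 3T3 cells, 32 bp away. It stood above 99.8% of the dendritic cell list and 74.7% of the 3T3 list.

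**Figure D5:**
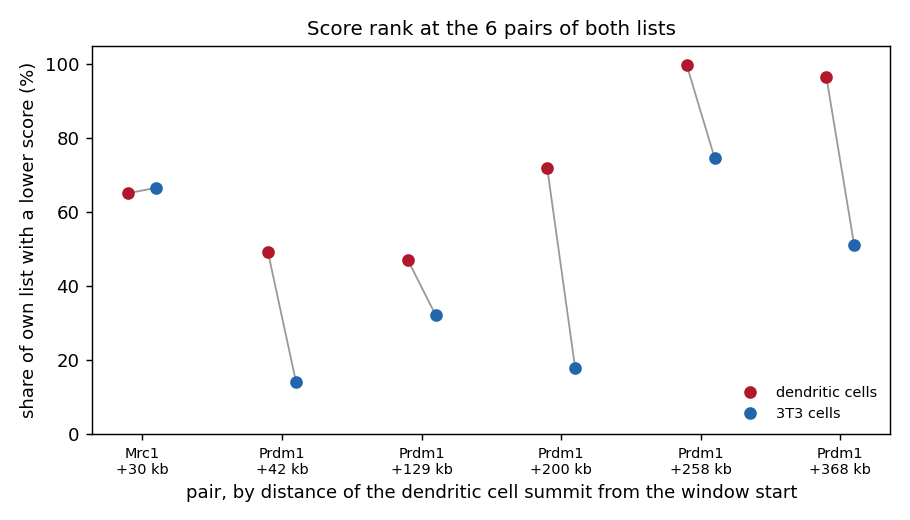
Rank of the score within its own list at the 6 pairs of mutually nearest summits, as the share of that list with a lower score, in dendritic cells (left point) and 3T3 cells (right point). Pairs are named by the distance of the dendritic cell summit from the window start. The dendritic cell rank is the higher one at all 5 Prdm1 pairs, and the ranks nearly coincide at the Mrc1 pair.

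Most 3T3 summits of the Prdm1 window were low to middling. The 9 scores ran from 19 to 50 with a median of 27, against 33 for the 3T3 list, and 6 of 9 were below that median. The highest, at 50, equalled the upper quartile of the 3T3 list. Of the 9, 4 (44.4%, 13.7 to 78.8) had no dendritic cell summit within 1000 bp, against 70.2% of the whole 3T3 list. These were at 44082476 (score 20), 44100690 (33), 44237864 (29) and 44253765 (19), and all lay between 1972 and 6945 bp from a dendritic cell summit. Of the 3 3T3 summits around Mrc1, 2 had none within 1000 bp. No 3T3 summit in either window was at or above the 90th percentile of its list, a score of 75. With 3 and 9 summits these shares have wide intervals.

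The chromosomes as a whole differed little between the lists. Chromosome 2 held 8.27% of the dendritic cell and 7.90% of the 3T3 summits, and chromosome 10 held 5.41 and 5.55%. Outside the windows the median relative log2 ratio at pairs was 0.05 on chromosome 2 (2054 pairs) and -0.02 on chromosome 10 (1368 pairs). At the 9 pairs in the 400 kb below the Prdm1 window it was 0.02, with a range of -1.31 to 1.41. At the 3 pairs in the 400 kb above that window the median was -0.30, with a range of -0.34 to -0.06. Within the window it was 1.05 over 5 pairs, with a range of 0.25 to 1.60. Local differences in DNA content or in the ease of mapping reads were not tested, as input DNA was not analysed here.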

How the data were processed

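H3K4me1 ChIP-seq was compared between unstimulated dendritic cells and unstimulated 3T3 cells, 1 library each. Per the labels' protocols, sheared DNA of about 300 bp was amplified over 18 PCR cycles and read as single 36 bp reads. Bowtie, MACS 1.4 and mm9 are named in the submitters' processing notes. Peaks were called without a fragment model or local background, at a threshold of 1e-04 and shifting by 150 bp, per the file headers. Whether input entered the calling, and the number of reads, have not been given in the sources used here, so depth is unknown. What the authors deposited is a 1 bp position per summit and a score, read here as a signal (height) because MACS writes that value; all scores were whole, and none was under 13.

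Positions are 1-based. Windows were read from the rule; the members and lists were chosen with earlier results of these data known. Shared summits lay within 1000 bp. Named summits are all 3T3 members, the 5 highest per window, the shared, the first and last, and those at the largest gap; others were named after their values were seen. Windows of equal length, laid from the first base of each chromosome and holding any summit, gave the background. The distance computation was checked on planted summits. Motifs were chosen after the promoters had been read. Stricter summits, merging, other distances and other window edges were tried. Software was Python 3.11.15 with pandas 2.3.3, numpy 2.4.6, matplotlib 3.10.9 and scipy 1.17.1.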

Additional observations from a re-analysis of the deposited data

How the results depend on the processing

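Of 48 alternative values, 37 stayed within the counting interval of the reported value (for numbers of summits, within 1.5 times; for pairs, within their range) and 11 moved. Those that stayed include all values with summits within 1000 bp merged, a setting that could move none of them. The smallest spacings around Mrc1 and Prdm1 were 1268 and 1712 bp in dendritic cells, and 4215 and 3808 bp in 3T3. With the 39898 highest-scoring summits of each list, the Mrc1 neighbourhood held 12 dendritic cell and 1 3T3 summits. The Prdm1 neighbourhood then held 27 and 2. In that setting the median scores were 79 and 49, and the median spacing was 12642 bp around Mrc1 (within its interval) and 12269.5 bp around Prdm1; keeping higher scores and fewer summits raises both by construction. With the Mrc1 window shortened by 50 kb at each end, it held 0 3T3 summits and 100% of its dendritic cell summits had none within 1000 bp, since its 3T3 summits stand near the ends. The relative log2 ratio of the single Mrc1 pair was -0.0096 with pairs within 500 bp and -0.034 within 2000 bp, because the median of all pairs moved. The share of dendritic cell summits without a 3T3 counterpart was 96% around Mrc1 at 250, 500 and 2000 bp, and between 88.5 and 94.2% around Prdm1. The share over the whole list was not computed at these distances, so the contrast with the list was not repeated. With the background windows moved along by 0.5 of their length, an excess as large was found in 1.34% (Mrc1) and 0.0193% (Prdm1). No library could be left out, with 1 per cell type. No paired analysis was possible because each cell type has 1 library. As depth is unknown, the lack of a summit says only that the list has none there.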
